A study of Homo sapiens with 9 samples.

Results

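The genes described are 9 output and repressor genes of the circadian clock: PER2, PER3, NR1D1, NR1D2, DBP, TEF, BHLHE40, BHLHE41 and CIART. They were chosen by name, with earlier results of these data known, and all 9 were found among the 60675 genes of the count table. All 9 passed the filter on low counts, which left 18356 genes for testing. The cells were SW1783, a human astrocytoma line, harvested 24 h after addition of the agents. Vehicle cultures received DMSO and nothing else (3 libraries, replicates 1, 2 and 3). The sample labels give the DMSO as 0.1% and the design text as 2%, and the DMSO content of the extract cultures is not given in the sources used here. Treated cultures received a 70% ethanol extract of Poria Cocos, a medicinal fungus, or of Atractylodis Rhizoma, a medicinal rhizome. Each extract was given at 20, 100 and 500 µg/mL, with 1 library for each of the 6 combinations. The labels put all 9 libraries in batch D and do not say that replicates were separate cultures. A p-value here thus reflects the spread among these libraries alone, which may be technical. The column names of vehicle and of treated libraries follow different codes, whose meaning is not given in the sources used here. Any handling difference that goes with the code cannot be told apart from treatment. The clock time of harvest is not given in the sources used here, and with a single harvest time a shift in phase and a change in mean level cannot be told apart. In bulk RNA, fewer expressing cells and less RNA per cell cannot be told apart either.

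The clock is a feedback loop that runs in most cells, astrocytes among them. A pair of activators, CLOCK (or its relative NPAS2) and BMAL1, encoded by ARNTL, bind E-boxes and switch on the PER and CRY genes, whose proteins return to block the pair. The same activators drive NR1D1 and NR1D2, nuclear receptors that repress ARNTL through receptor elements, and DBP, TEF and HLF, factors that activate genes through D-boxes, where the repressor NFIL3 competes with them. BHLHE40 and BHLHE41 compete for E-boxes, and CIART represses the CLOCK and BMAL1 pair.

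To show where these elements lie near the genes, the RefSeq promoter windows (GRCh38.p14, 250 bases before to 50 after a start) of the 9 genes were searched on both strands. All 9 genes had a window, 12 windows in all. The E-box was searched as CACGTG, a related form called here the E-prime box as CACGTT, the D-box as TTATGTAA or TTACGTAA, and the receptor element core as TAGGTCA or TGGGTCA. No 2 of these motifs share letters at any of the matches found. An E-box was present in 6 of the 12 windows, against 7.256% of all 35116 windows, and in 5 of the 9 genes, against 8.775% of 27305 genes. A D-box was present in 3 of the 12 windows (1.011% of all windows), from 3 genes (1.271% of all genes). An E-prime box was present in 2 windows (5.342%) of 2 genes (6.438%), and a receptor element core in 1 window (5.687%) of 1 gene (6.944%). The DBP window, the window at the first NR1D2 start and that at the second PER3 start held no match. This says nothing of elements outside these windows. A match is a description of the sequence and not a site known to be bound in these cells.

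Sequences are printed for 4 windows, from genes with different behaviour below. Annotated exon bases in these windows were not counted. PER2 and CIART were lower in every treated library, PER3 was higher in every treated library, and NR1D2 differed between the extracts at the top dose. Each sequence runs 5′ to 3′ on the gene's strand from 250 bases before the start, and capitals mark the motif matches. The PER3 and CIART stretches lie at the annotated beginning of their genes, whereas those of PER2 and NR1D2 precede a RefSeq start that lies inside the longer GENCODE gene. The PER2 stretch (chr2:238288606-238288860, minus strand) has an E-prime box 197 bases before the start and a D-box that spans the start. The PER3 stretch (chr1:7784041-7784295, plus strand, the first of 2 starts) has a D-box at 177 bases before the start. The NR1D2 stretch (chr3:23945871-23946125, plus strand, the second of 2 starts) has a D-box, 2 E-boxes and, between them, a receptor element core. The CIART stretch (chr1:150282304-150282558, plus strand) has 3 E-boxes.
PER2: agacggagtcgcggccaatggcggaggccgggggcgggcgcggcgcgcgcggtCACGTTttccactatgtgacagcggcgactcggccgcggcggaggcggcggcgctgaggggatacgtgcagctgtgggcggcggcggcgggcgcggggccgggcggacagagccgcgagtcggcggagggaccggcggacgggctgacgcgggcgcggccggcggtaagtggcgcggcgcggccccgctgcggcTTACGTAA
PER3: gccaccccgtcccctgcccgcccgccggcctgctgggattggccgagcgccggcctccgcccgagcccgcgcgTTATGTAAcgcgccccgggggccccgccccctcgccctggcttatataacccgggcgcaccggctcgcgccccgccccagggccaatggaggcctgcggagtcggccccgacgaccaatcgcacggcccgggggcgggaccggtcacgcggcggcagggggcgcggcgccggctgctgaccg
NR1D2: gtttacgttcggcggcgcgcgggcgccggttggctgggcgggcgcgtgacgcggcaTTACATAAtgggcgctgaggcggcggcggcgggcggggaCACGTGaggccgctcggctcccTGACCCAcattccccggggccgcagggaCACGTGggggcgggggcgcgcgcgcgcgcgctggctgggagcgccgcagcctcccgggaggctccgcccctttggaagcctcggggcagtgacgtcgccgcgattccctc
CIART: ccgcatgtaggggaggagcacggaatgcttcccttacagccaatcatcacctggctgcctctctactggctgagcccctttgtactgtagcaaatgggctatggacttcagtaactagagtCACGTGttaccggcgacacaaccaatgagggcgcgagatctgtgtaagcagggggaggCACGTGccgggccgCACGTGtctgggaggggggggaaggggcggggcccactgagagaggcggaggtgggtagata

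**Figure D1:**
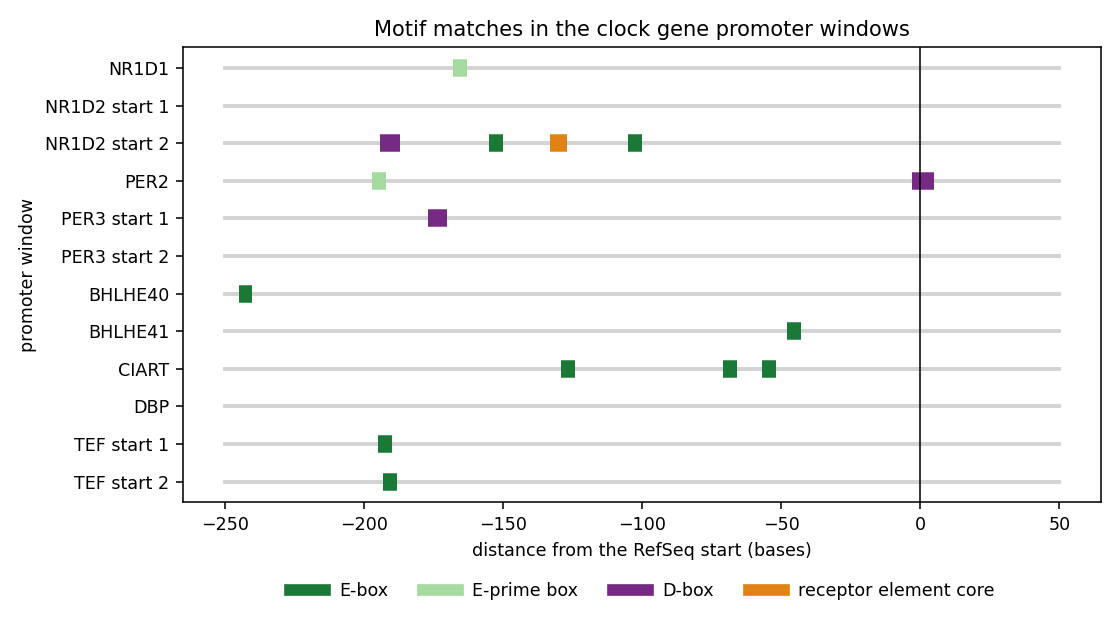
Positions of motif matches in the 12 RefSeq promoter windows of the 9 clock genes, with distance from the RefSeq start in bases on the x axis and 1 row per window. Coloured blocks are matches on either strand, the vertical line is the start, and CIART is the row with 3 E-boxes.

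The libraries held 40269708 to 48905602 expected counts each, and levels below are CPM, counts scaled to the same library total after normalization between libraries. Mitochondrial genes took 5.93% to 6.46% of the counts in vehicle and 5.38% to 6.97% in treated libraries. The groups did not overlap in 2 other library measures. Normalization factors were 0.964 to 0.975 in vehicle and 1.00 to 1.03 in treated libraries. Genes with counts numbered 24614 to 24728 in vehicle and 24810 to 25705 in treated libraries. The cause was not tested. Of 10 astrocyte markers, GFAP, S100B, AQP4 and ALDH1L1, which mark mature astrocytes, did not exceed 0.178 CPM in any library. SLC1A2 did not exceed 0.340 CPM. SLC1A3, another astrocyte marker, was at 21.4 ± 0.509 CPM in vehicle (SD, n = 3), and SOX9, VIM and GJA1 were also expressed. Some markers of other cell types were above SLC1A3 in vehicle, among them TUBB3 (neuronal, 116 CPM), CD68 (myeloid, 166 CPM) and KDR (endothelial, 28.9 CPM). In contrast, 2 neuronal, 2 myeloid, 3 epithelial and 2 endothelial markers did not exceed 0.234 CPM in any library. The summed level of the astrocyte list was 6174 to 6478 CPM in vehicle and 5025 to 5715 CPM in treated libraries. Most of this sum was VIM, at 5802 to 6115 CPM in vehicle and 4674 to 5378 CPM in treated libraries. Of the 6 tested members, 1 rose (SLC1A3, to 25.0 to 27.1 CPM) and 3 fell (SOX9, VIM and GJA1). The part of this list in the clock gene results was not tested. Of the tested markers of other cell types, 0 of 7 neuronal, 1 of 5 myeloid (CD68, lower), 0 of 3 epithelial and 1 of 3 endothelial genes (KDR, higher) passed the test of treated against vehicle libraries, against 25.3% of all tested genes. The lowest Poria dose and the middle Atractylodis dose were nearly as close as vehicle libraries: the chi-square per degree of freedom between them was 3.33, against 2.38 to 3.27 between vehicle libraries and 7.36 to 20.5 between the other treated pairs. With either of them left out, the same number of members, 6 of 9, passed in treated against vehicle.

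In vehicle cells, levels per kilobase of annotated exon placed BHLHE40 highest at 59.3 ± 2.27 CPM per kb (SD, n = 3), followed by NR1D1 at 27.9 ± 0.730 and NR1D2 at 18.0 ± 0.0641 CPM per kb. BHLHE41 came next at 11.6 ± 0.185, TEF at 8.46 ± 0.120, CIART at 6.38 ± 0.0920 and PER3 at 5.47 ± 0.286 CPM per kb. PER2 at 2.31 ± 0.146 and DBP at 0.559 ± 0.0817 CPM per kb were the lowest. Each neighbouring pair in this order was separated by more than the sum of its 2 SDs. These SDs hold no error of the exon length, which joins the exons of all annotated transcripts of a gene. It was 6544 bases for DBP and 6877 for PER2, and the order and its gaps depend on such lengths. Without scaling by length, DBP was at 3.66 ± 0.535 and PER2 at 15.9 ± 1.00 CPM. DBP rested on 135 to 271 counts per library, the fewest of the 9 genes, and BHLHE40 on 7905 to 10090.

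The first comparison set the 6 treated libraries, both extracts and all doses together, against the 3 vehicle libraries. Differences between extracts and between doses therefore count as spread in this test. NR1D1, CIART, BHLHE40 and PER2, all repressors within the loop, were lower: NR1D1 fell by 18.8%, CIART fell by 17.8%, BHLHE40 fell by 15.6% and PER2 fell by 11.8%. PER3 and DBP rose, by 19.7% and 34.3%. NR1D2, BHLHE41 and TEF did not pass the test. These 6 of 9 genes passed at an adjusted p under 0.05 where 25.3% of all tested genes did, 12.0% higher and 13.3% lower. The same 6 genes had treated and vehicle libraries that did not overlap, against 26.1% of all tested genes. The median log2 difference of the 9 genes was -0.08, against 0.01 for all tested genes. The sizes were modest among all genes: 10.7% of tested genes differed at least as much as DBP, 19.5% as much as NR1D1 and 39.3% as much as PER2.

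**Figure D2:**
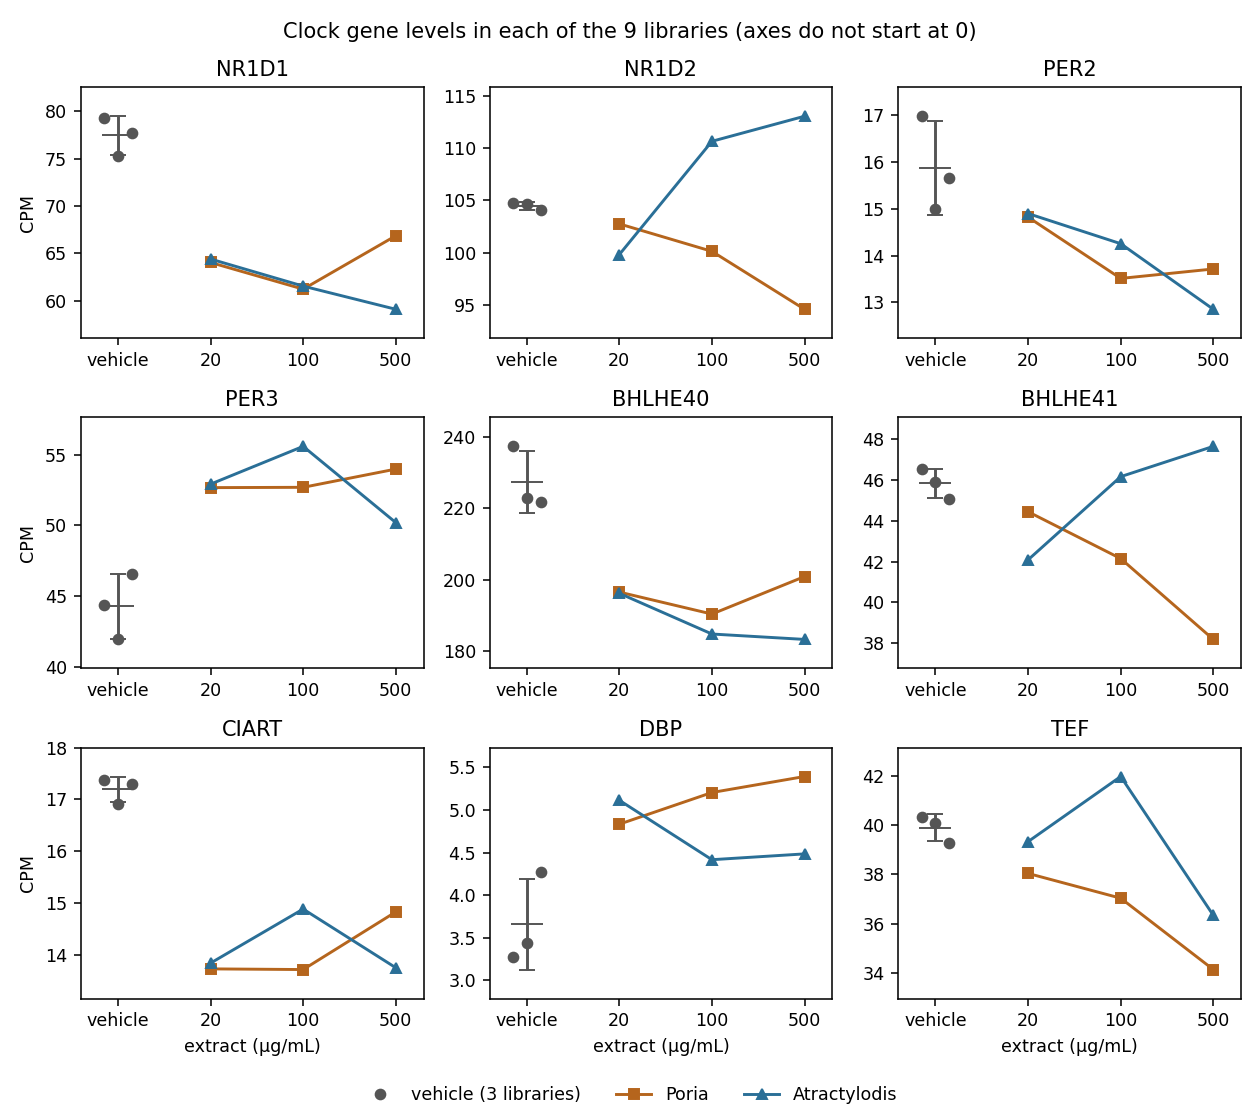
Level of each clock gene in CPM (y axis, not starting at 0) against extract concentration in µg/mL (x axis). Grey points are the 3 vehicle libraries with their mean and SD, and squares and triangles are single Poria and Atractylodis libraries. The NR1D1, BHLHE40 and CIART points of the treated libraries all lie below the vehicle points, and those of PER3 and DBP all lie above.

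NR1D1 (ENSG00000126368; GRCh38 chromosome 17, 40092787 to 40100725, minus strand) encodes REV-ERB alpha, the receptor that represses ARNTL. Its level was 79.3, 75.3 and 77.7 CPM in vehicle replicates 1, 2 and 3. It was 64.0, 61.2 and 66.9 CPM with Poria at 20, 100 and 500 µg/mL, and 64.4, 61.5 and 59.1 CPM with Atractylodis at the same doses. Every treated library was below every vehicle library, and the lowest dose of each extract was already below them by more than the vehicle spread. Treated libraries were lower by a log2 difference of -0.30 ± 0.04 (SE; adjusted p = 5.2e-05, edgeR's quasi-likelihood test). NR1D1 shares 263 of its 2772 exon bases with THRA on the opposite strand, and THRA differed by -0.07 in log2 (adjusted p = 0.26). The library kit marks strand, but the strand setting of the counting is not given in the sources used here.

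NR1D2 (ENSG00000174738; chromosome 3, 23945260 to 23980618, plus strand) encodes the related receptor REV-ERB beta. Its promoter stretch above, from the second start, holds a D-box and a receptor element core, and the window at its first start holds no match. Its level was 104.7, 104.7 and 104.1 CPM in the vehicle libraries, the closest set of the 9 genes relative to its level. It was 102.8, 100.1 and 94.6 CPM with Poria at 20, 100 and 500 µg/mL, and 99.8, 110.6 and 113.0 CPM with Atractylodis. All 3 Poria libraries lay below vehicle, whereas Atractylodis lay below at 20 µg/mL and above at the higher doses. Over all 6 treated libraries the log2 difference was -0.01 ± 0.05 (adjusted p = 0.86), and -0.11 (adjusted p = 0.073) with offsets for gene GC content and length. NR1D2 has the lowest GC content of the 9 genes, 38.5% of the bases of its longest transcript against 59.5% for NR1D1.

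PER2 (ENSG00000132326; chromosome 2, 238244038 to 238290102, minus strand) encodes a core repressor that joins the CRY proteins to block CLOCK and BMAL1. Its level was 17.0, 15.0 and 15.7 CPM in vehicle, 14.8, 13.5 and 13.7 CPM with rising Poria, and 14.9, 14.3 and 12.9 CPM with rising Atractylodis. The groups did not overlap, but the gap between the lowest vehicle library (15.00 CPM) and the highest treated library (14.90 CPM) was narrow. PER2 was lower by a log2 difference of -0.18 ± 0.06 (adjusted p = 0.032). That call was lost without vehicle replicate 1 (-0.13, adjusted p = 0.21), without vehicle replicate 3 (adjusted p = 0.074), without Poria at 100 µg/mL (adjusted p = 0.064), without Atractylodis at 500 µg/mL (adjusted p = 0.053) and with GC and length offsets (adjusted p = 0.064).

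PER3 (ENSG00000049246; chromosome 1, 7784320 to 7845177, plus strand) encodes the third PER protein, which is regarded as dispensable for the core loop. Its level was 44.3, 41.9 and 46.6 CPM in vehicle. It was 52.7, 52.7 and 54.0 CPM with Poria at 20, 100 and 500 µg/mL, and 52.9, 55.6 and 50.2 CPM with Atractylodis. All 6 treated libraries were above all vehicle libraries, so PER3 moved opposite to PER2, by a log2 difference of 0.26 ± 0.04 (adjusted p = 0.00033). UTS2, which overlaps 868 exon bases of PER3 on the opposite strand, had no counts in any library.

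BHLHE40 (ENSG00000134107; chromosome 3, 4979116 to 4985323, plus strand) encodes DEC1, a basic helix-loop-helix repressor that competes at E-boxes. Its level was 237.4, 223.0 and 221.7 CPM in vehicle, 196.5, 190.3 and 200.8 CPM with rising Poria, and 196.1, 184.7 and 183.2 CPM with rising Atractylodis. The 6 treated libraries lay below the 3 vehicle libraries without overlap. The log2 difference was -0.24 ± 0.04 (adjusted p = 0.00022).

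BHLHE41 (ENSG00000123095; chromosome 12, 26120026 to 26125127, minus strand) encodes the paralog DEC2. Its level was 46.5, 45.9 and 45.0 CPM in vehicle, 44.4, 42.1 and 38.2 CPM with rising Poria, and 42.1, 46.1 and 47.6 CPM with rising Atractylodis. The Poria libraries lay below vehicle and the Atractylodis libraries on both sides of it. Over the 6 treated libraries the log2 difference was -0.08 ± 0.06 (adjusted p = 0.34). SSPN, which shares 162 of the 3948 exon bases of BHLHE41 on the opposite strand, rose by 0.35 ± 0.06 in log2 (adjusted p = 0.00030).

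CIART (ENSG00000159208; chromosome 1, 150282543 to 150287093, plus strand) encodes CHRONO, a repressor of the CLOCK and BMAL1 pair, and has the 3 E-boxes shown above. Its level was 17.4, 16.9 and 17.3 CPM in vehicle. It was 13.7, 13.7 and 14.8 CPM with Poria at 20, 100 and 500 µg/mL, and 13.8, 14.9 and 13.8 CPM with Atractylodis. Every treated library lay below the lowest vehicle library by more than the whole vehicle range, and the levels did not follow dose. CIART fell by 0.28 ± 0.05 in log2 (adjusted p = 0.00051).

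DBP (ENSG00000105516; chromosome 19, 48630030 to 48637438, minus strand) and TEF are D-box activators whose RNA follows the clock in many tissues. DBP was at 3.27, 3.44 and 4.27 CPM in vehicle. With Poria it was at 4.83, 5.21 and 5.39 CPM at 20, 100 and 500 µg/mL, and with Atractylodis at 5.11, 4.42 and 4.48 CPM. No treated library overlapped vehicle, although vehicle replicate 3 came close to the lowest of them. The log2 difference was 0.43 ± 0.10 (adjusted p = 0.0049), and 0.35 (adjusted p = 0.052) without vehicle replicate 1. SPHK2 shares 661 of the 6544 exon bases of DBP on the opposite strand and differed by -0.13 in log2 (adjusted p = 0.12).

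TEF (ENSG00000167074; chromosome 22, 41367333 to 41399326, plus strand) was at 40.3, 40.1 and 39.3 CPM in vehicle, 38.0, 37.0 and 34.1 CPM with rising Poria, and 39.3, 42.0 and 36.3 CPM with rising Atractylodis. The Poria libraries were below vehicle, and the Atractylodis libraries fell on both sides. TEF thus did not share the rise of DBP: its log2 difference over the treated libraries was -0.08 ± 0.05 (adjusted p = 0.31).

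**Figure D3:**
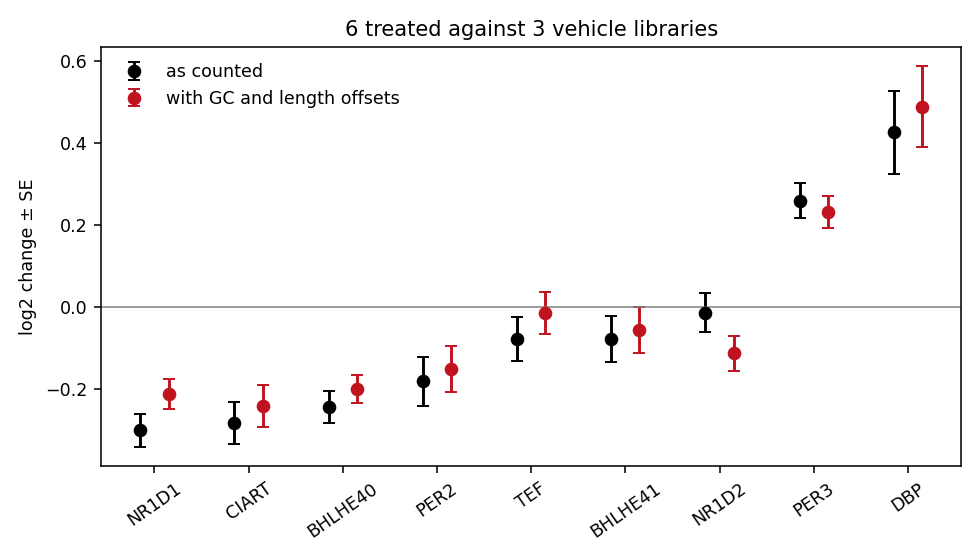
log2 difference of 6 treated from 3 vehicle libraries with its SE (y axis) for each clock gene (x axis), as counted in black and with GC and length offsets in red. The 4 genes on the left lie below 0 and PER3 and DBP above 0 in both fits, and NR1D2 moves from -0.01 to -0.11 with the offsets.

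To ask whether the genes followed dose, a slope per extract was fitted over 3 steps of 5-fold dose with vehicle as the starting level. With Poria, 6 of 9 genes passed, against 20.8% of all tested genes. DBP rose by 0.17 ± 0.05 in log2 per step (adjusted p = 0.028). TEF (-0.07 ± 0.02, adjusted p = 0.021), BHLHE41 (-0.07 ± 0.02, adjusted p = 0.024), PER2 (-0.08 ± 0.03, adjusted p = 0.034), NR1D1 (-0.09 ± 0.03, adjusted p = 0.034) and BHLHE40 (-0.07 ± 0.02, adjusted p = 0.035) fell. The number of the 9 genes passing was 0 without vehicle replicate 1, 2 without vehicle replicate 2 and 3 without vehicle replicate 3. It was 2 without Poria at 100 µg/mL, 3 without Poria at 500 µg/mL and 9 without Atractylodis at 20 µg/mL. In the same order, 2552, 2747, 2723, 2675, 2666 and 4242 of all tested genes passed, against 3815 with every library. With GC and length offsets 3 of the 9 passed (2828 of all genes), and with dose itself in place of dose steps 0 (125 of all genes).

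With Atractylodis, 3 of 9 genes passed, against 19.0% of all tested genes, and all 3 fell (10.5% of all genes did). NR1D1 changed by -0.12 ± 0.03 in log2 per step (adjusted p = 0.0070), BHLHE40 by -0.10 ± 0.02 (adjusted p = 0.0048) and PER2 by -0.09 ± 0.03 (adjusted p = 0.025). NR1D1 missed the threshold without Atractylodis at 500 µg/mL (adjusted p = 0.054). PER2 missed it without vehicle replicate 1 (adjusted p = 0.093), vehicle replicate 3 (adjusted p = 0.051) or Atractylodis at 500 µg/mL (adjusted p = 0.32). Both slopes use the same vehicle libraries.

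These slopes draw partly on the step from vehicle to the first dose. When only the treated libraries set the slope, 0 of 9 genes passed with either extract, by edgeR's quasi-likelihood test and by DESeq2, against 2.45% of all genes for Poria and 4.04% for Atractylodis. At an unadjusted p under 0.05, 2 genes passed with each, and the share of all genes at that level was not computed. The NR1D2 slope within Atractylodis was 0.09 ± 0.03 per step (adjusted p = 0.068, and 0.029 without the 100 µg/mL library), and the BHLHE41 slope within Poria was -0.11 ± 0.03 (adjusted p = 0.080).

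Each single dose was then set against vehicle in a fit of 7 groups, which takes the spread of each lone library to be that of the vehicle libraries. At 20 µg/mL, 4 of 9 genes passed with Poria (19.9% of all genes) and 5 of 9 with Atractylodis (17.5%). At 100 µg/mL, 6 passed with Poria (25.5%) and 4 with Atractylodis (25.2%). At 500 µg/mL, 9 of 9 passed with Poria (31.5%) and 6 with Atractylodis (31.0%). NR1D1, BHLHE40, CIART and PER3 passed in all 6 conditions, each in 1 direction. The 6 contrasts share the same vehicle libraries, so they are not independent, and the share of all genes passing in all 6 was not computed. At 20 µg/mL NR1D1 already differed by -0.27 ± 0.05 with either extract (adjusted p = 0.00011 for Poria and 0.00017 for Atractylodis). The CIART call was lost without vehicle replicate 1 at 100 µg/mL Atractylodis (adjusted p = 0.050) and, with GC and length offsets, there (adjusted p = 0.11) and at 500 µg/mL Poria (adjusted p = 0.11).

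Poria at 500 µg/mL was the condition in which 2 genes, DBP and PER3, rose (14.4% of all genes did) and the other 7 fell (17.1%). DBP was higher by 0.56 ± 0.14 in log2 (adjusted p = 0.0026) and PER3 by 0.29 ± 0.05 (adjusted p = 0.00016). BHLHE41 changed by -0.26 ± 0.05 (adjusted p = 0.00023), TEF by -0.22 ± 0.05 (adjusted p = 0.0015) and NR1D2 by -0.14 ± 0.04 (adjusted p = 0.0055), the 3 genes that did not pass over the treated libraries together. PER2 changed by -0.21 ± 0.08 (adjusted p = 0.035, and 0.12 without vehicle replicate 1). With Atractylodis at 500 µg/mL, NR1D2 was instead higher by 0.11 ± 0.04 (adjusted p = 0.025), but this value was -0.0016 (adjusted p = 0.98) with GC and length offsets, and missed the threshold without vehicle replicate 1 (adjusted p = 0.067) or 3 (adjusted p = 0.055). BHLHE41 differed from vehicle by 0.06 ± 0.05 there (adjusted p = 0.44).

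The extracts were compared with each other at matched doses, 1 library against 1, for the 9 genes at each of 3 doses, with p adjusted over all tested genes in each contrast. At 20 µg/mL 0 of 9 genes differed (1.07% of all genes), with 0 also at an unadjusted p under 0.05. At 100 µg/mL 0 of 9 differed (0.294% of all genes), with 3 at an unadjusted p under 0.05. Shares of all genes at an unadjusted p under 0.05 were not computed for these contrasts. At 500 µg/mL 3 of 9 differed (11.1% of all genes). BHLHE41 was lower with Poria than with Atractylodis by a log2 difference of -0.32 ± 0.06 (adjusted p = 0.0010), and NR1D2 by -0.26 ± 0.05 (adjusted p = 0.00061). NR1D1 was higher with Poria by 0.18 ± 0.06 (adjusted p = 0.037), so the receptor paralogs differed between the extracts in opposite directions. These 3 calls held with GC and length offsets and without each vehicle library in turn. For the other 6 genes the log2 difference at 500 µg/mL ran from -0.09 ± 0.06 (TEF) to 0.27 ± 0.17 (DBP). The difference between the 2 slopes over dose passed for 0 of 9 genes in edgeR (1.16% of all genes; 3 at an unadjusted p under 0.05) and for 1 in DESeq2, NR1D2, at -0.07 per step (adjusted p = 0.026).

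**Figure D4:**
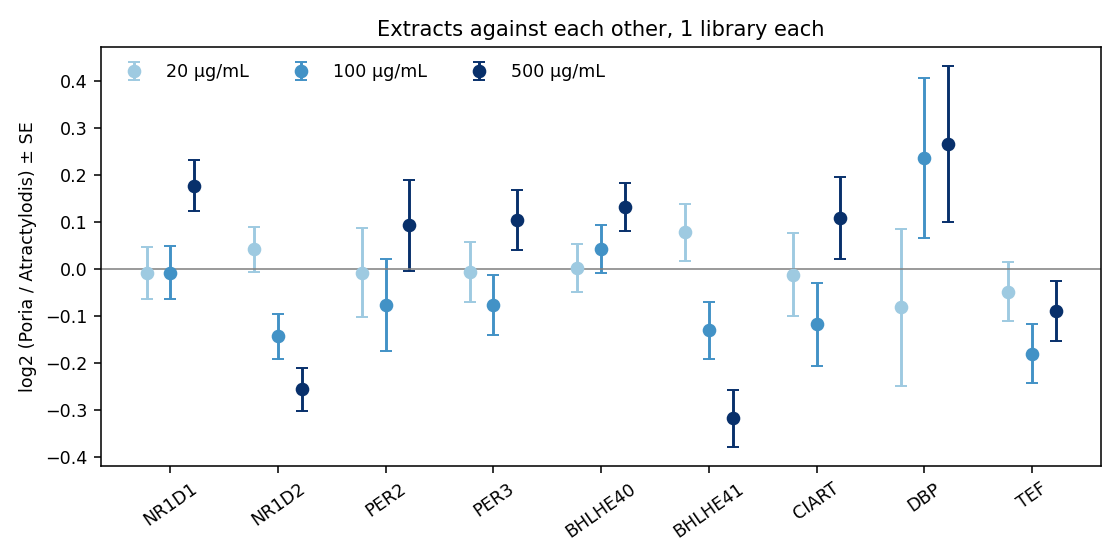
log2 ratio of Poria over Atractylodis with its SE (y axis) for each clock gene (x axis) at 20, 100 and 500 µg/mL, from light to dark blue. At 500 µg/mL NR1D2 (-0.26) and BHLHE41 (-0.32) lie below 0 and NR1D1 (0.18) above.

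The rest of the pathway was described from lists of activators, other repressors, protein modifiers, input signals and output genes. Their counts stand beside shares of 12.0% higher and 13.3% lower among all tested genes, and of 9.72% higher and 11.8% lower (21.5% in all) with GC and length offsets. Among 6 tested activators, 1 rose and 1 fell in treated against vehicle libraries, and 0 rose and 2 fell with GC and length offsets. NPAS2, the relative of CLOCK, was at 9.68 to 10.3 CPM in vehicle and 7.11 to 8.26 CPM in treated libraries (-0.42 ± 0.07, adjusted p = 0.00022). RORB, a receptor that opposes the REV-ERB proteins, rose from 0.859 ± 0.0459 CPM (SD, n = 3) to 0.973 to 1.82 CPM (0.63 ± 0.18, adjusted p = 0.017), a call lost with GC and length offsets (adjusted p = 0.051). ARNTL, the direct target of NR1D1, was at 8.27 to 8.64 CPM in vehicle and 6.57 to 8.26 CPM in treated libraries (-0.17 ± 0.07, adjusted p = 0.11, and -0.22 with adjusted p = 0.039 under the offsets). RORA differed by 0.16 ± 0.13 (adjusted p = 0.39). NPAS2 was thus the activator with the smallest p.

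Among 7 other repressors and D-box factors, 2 rose and 2 fell, and 2 rose and 1 fell with the offsets. PER1, the PER gene most open to acute signals, fell from 39.4 ± 1.11 CPM in vehicle to 30.0 to 34.5 CPM in treated libraries (-0.29 ± 0.05, adjusted p = 0.00054), the direction of PER2 and not of PER3. HLF, the third D-box activator, rose from 5.31 ± 0.243 CPM to 6.28 to 8.08 CPM (0.44 ± 0.09, adjusted p = 0.0013), close in size to DBP. NFIL3, which competes at D-boxes, rose by 0.20 ± 0.06 (adjusted p = 0.027), and CRY2 fell by 0.18 ± 0.05 (adjusted p = 0.018, and 0.12 with GC and length offsets).

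**Figure D5:**
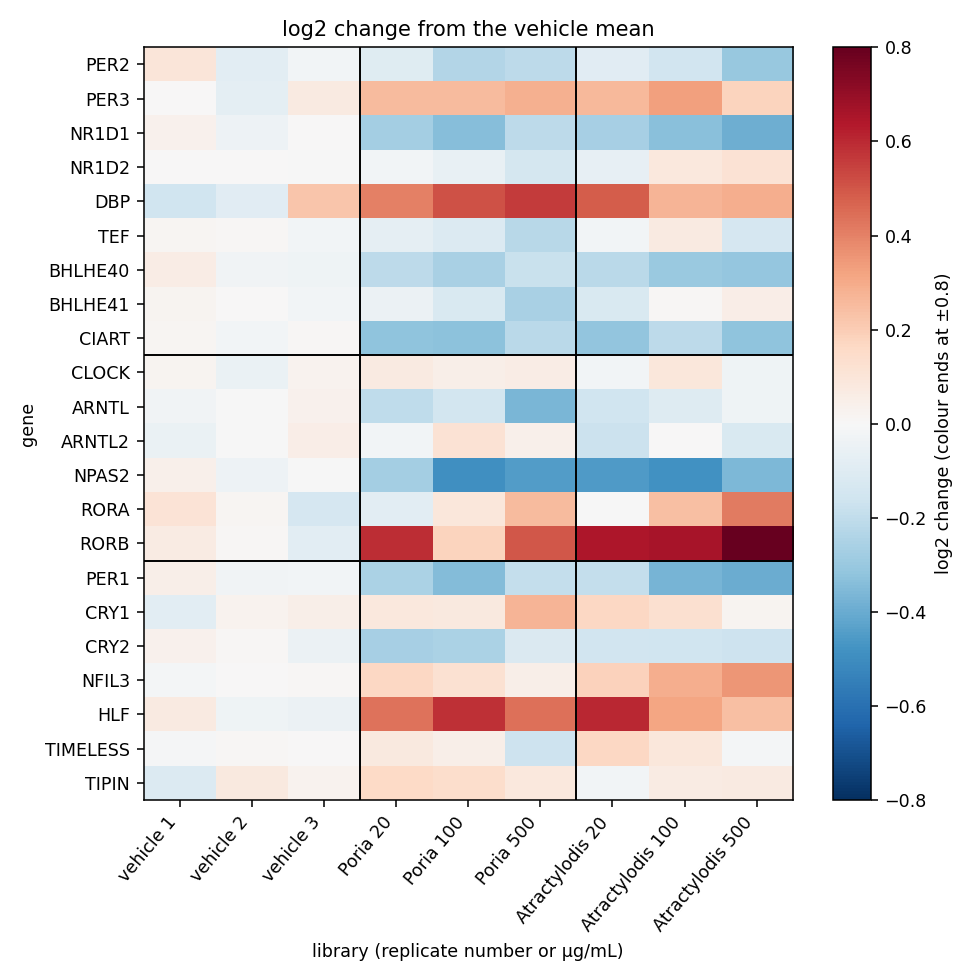
log2 change from the vehicle mean (colour, scale ending at ±0.8) of the 9 genes, the activators and the other repressors (rows, split by horizontal lines) in each library (columns, split by vertical lines into vehicle, Poria and Atractylodis). PER3, DBP and HLF are red and NR1D1, CIART, PER1 and NPAS2 blue in all 6 treated libraries.

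Among 21 tested modifiers of clock proteins, 5 rose and 7 fell, and 1 rose and 6 fell with GC and length offsets. CSNK1E, a kinase that marks PER proteins for breakdown, fell from 130.2 ± 1.90 to 103.0 to 118.5 CPM (-0.26 ± 0.04, adjusted p = 0.00021). SFPQ, an RNA-binding partner of the PER complex, changed by -0.26 ± 0.04 (adjusted p = 0.00011), and the phosphatase genes PPP1CA and PPP5C by -0.21 ± 0.04 (adjusted p = 0.0014) and -0.20 ± 0.04 (adjusted p = 0.0028). Among 14 genes of inputs that reset the clock, 4 rose and 4 fell, and 2 rose and 3 fell with the offsets. SRF, the serum response factor, fell from 84.2 ± 0.571 to 64.2 to 70.8 CPM (-0.33 ± 0.04, adjusted p = 1.4e-05), whereas EGR1, an immediate early gene, rose by 0.54 ± 0.12 (adjusted p = 0.0076). HSF1, the heat shock factor, changed by -0.20 ± 0.03 (adjusted p = 0.00045) and CRTC2, a CREB coactivator, by -0.26 ± 0.05 (adjusted p = 0.0014).

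Among 11 output genes, 2 rose and 3 fell, and 1 rose and 3 fell with the offsets. NOCT, the rhythmic gene nocturnin, fell by 0.36 ± 0.06 (adjusted p = 0.00024). TSC22D3, a glucocorticoid target, rose by 0.22 ± 0.06 (adjusted p = 0.016). GPCPD1 rose by 0.25 ± 0.08 (adjusted p = 0.037), a call lost with GC and length offsets (0.14, adjusted p = 0.27).

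Genes with the most similar pattern were sought for the 3 members with the largest mean change over the treated libraries, by the root mean square difference of 6 log2 changes among 11554 other genes. For DBP they were TMEM198B (0.056), STON1 (0.074) and L3MBTL1 (0.075), and 9 genes lay within 0.1. For NR1D1 they were PELP1 (0.014), PLAGL2 (0.020) and PACS1 (0.028), and 534 genes lay within 0.1. For CIART they were ZNF324 (0.035), ZNF764 (0.035) and GRINA (0.044), and 436 genes lay within 0.1. DBP had the fewest counts and the largest changes of the 3, so its number is not comparable with the others.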

How the data were processed

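RNA of SW1783 cells was sequenced as 100-base read pairs from a strand-marking library, per the labels' protocols. The authors deposited expected counts per gene, which need not be whole, and the submitters' processing notes name FastQC 0.11.9, Trim Galore 0.6.5, STAR 2.7.3a and RSEM 1.3.3 on GRCh38. Which annotation release and strand setting were used is not given in the sources used here. Among the 279 columns, 9 carry names of these samples and 270 were left unused. Gene IDs were matched to GENCODE for symbols, positions and exon lengths.

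Counts were rounded and tested with edgeR 4.0.16 in R 4.3.3 (TMM factors, filterByExpr with a count minimum of 10 and a total minimum of 15, robust quasi-likelihood F-tests, Benjamini-Hochberg adjustment over 18356 genes, threshold 0.05). An SE is the log2 difference divided by the square root of F. The fits were run on simulated counts with 1 spread for all genes, a coefficient of variation of 4.97% beyond counting error, taken from the slope fit. Changes were set only in genes with an average log2 CPM of at least 2. Treated against vehicle recovered 75% of genes changed by 0.25 in log2 and 100% at 0.5, and a single library of Poria at 500 µg/mL against vehicle 12% and 88%. In the real data this common spread was 5.49% in the treated against vehicle fit and 2.58% in the fit of 7 groups, so these shares may not carry over. Chi-square per degree of freedom between libraries was 2.38 to 3.27 within vehicle, 3.33 to 20.5 between treated libraries and 13.0 to 29.2 between treated and vehicle, so no library was counted as a repeat of another. Alternatives were DESeq2 1.42.0, RLE factors, no count filter, offsets from a spline on GC content and length (a value for 99.2% of genes), dose in place of dose step, and each library left out. The single-dose and between-extract alternatives were added after seeing the data.

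All 9 members are named. From each other list, up to 4 genes with the smallest p in treated against vehicle are named, and for the 3 members with the largest mean change, the 3 most similar genes whose mean log2 CPM reached 2. Values of some listed genes are not reported here. The members and lists were chosen with earlier results of these data known. Promoter windows are RefSeq's, and motif shares are over all its windows of 300 bases.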

Additional observations from a re-analysis of the deposited data

Results flagged for a closer look

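At 500 µg/mL the extracts differed from each other, in a test of the difference itself, in 3 of the 9 genes. The log2 difference of Poria from Atractylodis was -0.32 for BHLHE41 (38.2 against 47.6 CPM), -0.26 for NR1D2 (94.6 against 113.0 CPM) and 0.18 for NR1D1 (66.9 against 59.1 CPM). Each rests on 1 library per extract, with the spread taken from the 3 vehicle libraries. With GC and length offsets the values were -0.32, -0.25 and 0.18, and all 3 still passed.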

How the results depend on the processing

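Of 1215 values of the 9 genes under an alternative, 426 belong to results called as reported, of which 59 missed the threshold and 1 had the other sign, NR1D2 with Atractylodis at 500 µg/mL (-0.0016 with GC and length offsets). The other 789 belong to results not called, of which 35 were called and 28 had the other sign, none of them called. The number of members passing in treated against vehicle stayed at 4 to 6 with 1 library left out. For the Poria slope it was 3 with GC and length offsets, 0 with dose in place of dose step and 0 to 9 with 1 library left out. For the Atractylodis slope it was 5 without the count filter, 0 with dose itself and 2 to 4 with 1 library left out. For the difference of slopes it was 1 with DESeq2, without the filter and with the offsets, and 0 to 2 with 1 library left out. For the slope within Atractylodis it was 0 to 1 with 1 library left out.

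Over all genes, dose in place of dose step left 125 of 3815 calls for the Poria slope, 67 of 3495 for Atractylodis and 54 of 213 for their difference, which became 339 with DESeq2 and 555 without the filter. With 1 library left out these ranged from 1035 to 4297 for Atractylodis and from 0 to 300 for the difference (0 without either 500 µg/mL library), and treated against vehicle from 2986 (without vehicle replicate 1) to 5353. The slope within Poria called 449, 240 with DESeq2, 685 without the filter and 16 to 657 with 1 library left out, and that within Atractylodis 742, 488 with the offsets and 102 to 1196.

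With GC and length offsets the sign turned for the Atractylodis slope of NR1D2 (-0.0046) and TEF (0.0019), the slope of CIART within Atractylodis (0.0068), NR1D2 at 100 µg/mL Atractylodis (-0.044), and Poria against Atractylodis at 20 µg/mL for PER2 (0.00010), NR1D1 (0.072), NR1D2 (-0.0044), TEF (0.015) and CIART (0.0081). With 1 library left out, values of either sign were reached by the Atractylodis slope of TEF (-0.045 to 0.027) and BHLHE41 (-0.017 to 0.015), by treated against vehicle of NR1D2 (-0.041 to 0.011), and by BHLHE41 at 100 µg/mL Atractylodis (-0.0053 to 0.017). The same held for the difference of slopes of PER2 (-0.020 to 0.021), PER3 (-0.061 to 0.036), NR1D1 (-0.034 to 0.066), BHLHE40 (-0.015 to 0.067) and CIART (-0.066 to 0.024). It held for the slope within Poria of PER2 (-0.13 to 0.022), NR1D1 (-0.064 to 0.13), BHLHE40 (-0.046 to 0.078) and CIART (-0.00099 to 0.11), and within Atractylodis of PER3 (-0.15 to 0.071), DBP (-0.21 to 0.022), TEF (-0.21 to 0.094) and CIART (-0.11 to 0.10). The cause was not tested. No paired analysis was possible because the groups share fewer than 2 replicate numbers, each treated condition being 1 library numbered 2. The extracts share 3 doses, and a fit blocked by dose was not run. Counting error was largest for DBP (Poisson CV 8.61% at its lowest count), and 1 library per condition limits single-dose calls.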

Other observations

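CLOCK, at 1439 ± 43.9 CPM in vehicle (SD, n = 3), stood at the 98.7th percentile of all tested genes per kilobase of exon, at 124 CPM per kb over the 9 libraries against a median of 2.74 CPM per kb. Its neighbours on chromosome 4 (GRCh38) were also high: of the 18 other tested coding genes from SRD5A3 to IGFBP7, 12 were at or above the 90th percentile, among them PAICS at 419 and SRP72 at 421 CPM per kb. KIAA1211, within the same stretch, was at 0.343 CPM per kb. These genes were chosen after their values were seen, and no cause was tested. CLOCK itself differed between treated and vehicle libraries by 0.04 ± 0.04 in log2 (adjusted p = 0.56). With GC and length offsets the value had the other sign, -0.09 ± 0.04 (adjusted p = 0.096).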
